A study of Mus musculus with 14 samples.

Results

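The transcripts of 5 ion channel subunits, Hcn2, Hcn3, Hcn4, Kcnq3 and Kcnq5, were followed in the translating mRNA of hippocampal parvalbumin (PV) neurons of mice after chronic social defeat stress (CSDS). They were picked by name, as pore subunits of channels that work near the resting potential, with earlier results of these data known. They made up 5 of the 39017 genes in the count table. All 5 passed the filter on low counts, after which 21298 genes were tested. All animals were male EGFP-L10a+; PV-Cre+ mice of C57BL/6 background, young adults when the behavioral work began, in which Cre expressed from the Pvalb locus switches on the EGFP-tagged ribosomal protein L10a. Tagged polysomes were pulled down from hippocampal homogenate by translating ribosome affinity purification (TRAP), and both hippocampi of 1 mouse made up 1 sample. The groups were non-defeated controls never in contact with an aggressor (4 TRAP libraries), mice that underwent CSDS and were resilient in the social interaction test (4 libraries), mice that underwent CSDS and were susceptible (3 libraries), and input (3 libraries), which is RNA of non-defeated homogenate taken before the pulldown. Susceptible mice spent less time near an aggressor than near an empty enclosure, and resilient mice more. The label of the input libraries also gives their molecule type as translating RNA, whereas the design text calls them total RNA.

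HCN channels open when the membrane hyperpolarizes and pass the depolarizing current Ih, which is tuned by cyclic AMP. KCNQ (Kv7) channels pass the M-current, a slow potassium current that opens below the spike threshold, damps repetitive firing and closes when muscarinic receptors deplete the membrane lipid PIP2. In hippocampal interneurons both families set the resting potential and how readily the cell fires.

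The libraries held 64110214 to 80063224 counts in the input group, 72098582 to 94726962 in the non-defeated group, 75325264 to 87316567 in the resilient group and 73348628 to 77566993 in the susceptible group. Pvalb, the marker that defines the cells, stood at 20.02 to 31.9 CPM (counts scaled to a common library size) in the input libraries and at 1265 to 1548 CPM in the non-defeated TRAP libraries (log2 fold change 5.85, adjusted p = 7.89e-11, edgeR quasi-likelihood test). The 5 markers of excitatory neurons were all lower in TRAP than in input and summed to 1889 to 2210 CPM in input and 709 to 949 CPM in non-defeated TRAP, so RNA of other cells was still present. CPM values here were scaled by TMM, a normalization that sets the bulk of genes level between libraries.

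The promoters of Hcn2 and Kcnq5 are printed because these genes lay at opposite ends of the TRAP to input comparison. Each run is the 250 bases before the transcript start in RefSeq (GRCm38.p6), written 5′ to 3′ on the gene's strand, with the letters GGGCGG or their reverse complement CCGCCC in capitals. Of the 5 members, 3 had an entry in the promoter table.
Hcn2, chr10:79716384-79716633, plus strand: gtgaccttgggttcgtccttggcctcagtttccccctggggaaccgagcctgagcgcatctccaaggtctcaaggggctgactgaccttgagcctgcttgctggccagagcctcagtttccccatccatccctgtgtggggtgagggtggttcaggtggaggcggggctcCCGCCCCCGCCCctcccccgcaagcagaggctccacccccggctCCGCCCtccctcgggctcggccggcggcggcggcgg
Kcnq5, chr1:21961943-21962192, minus strand: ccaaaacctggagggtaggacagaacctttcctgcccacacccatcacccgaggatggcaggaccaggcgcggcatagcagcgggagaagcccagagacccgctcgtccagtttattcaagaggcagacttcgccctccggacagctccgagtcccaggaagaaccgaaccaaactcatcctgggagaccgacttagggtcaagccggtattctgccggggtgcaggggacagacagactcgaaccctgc
The Hcn2 window held 3 matches to GGGCGG on either strand, and the Kcnq5 window held 0, while 32.7% of 32851 promoter windows of this length held at least 1. The letters TATAAA (12.4% of windows) and CACGTG (6.0%), searched on both strands, were in neither. Both windows were rich in CG dinucleotides, with 16 in Hcn2 and 14 in Kcnq5 against a median of 6 over all windows. At least 14 were found in 29.4% of windows. The whole Kcnq5 window also lies inside an exon of Gm26580, a long noncoding RNA on the opposite strand.

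Enrichment of these subunits in the PV fraction was read from the non-defeated TRAP libraries against input. Such a ratio does not show whether PV neurons translate a depleted subunit. Hcn2 and Hcn3 were enriched in the PV fraction, Kcnq3 and Kcnq5 were depleted, and Hcn4 did not pass the test. By adjusted p under 0.05, 2 members were higher and 2 lower. Calls were common in this comparison: 55% of all genes tested passed, 27.4% higher and 27.6% lower. All libraries of 1 group lay above all of the other in 29.5% of genes (TRAP higher) and 32.5% (TRAP lower). The median log2 fold change was 0.55 over the 5 members and −0.04 over all genes.

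Hcn2 (ENSMUSG00000020331, plus strand of chromosome 10, 79716634 to 79736108 in mm10) encodes a subunit found widely in brain that responds strongly to cyclic AMP. Its level in the input libraries was 46.6, 45.2 and 50.0 CPM. In the non-defeated TRAP libraries it was 108, 115, 120 and 129 CPM. The groups were far apart, with every TRAP library above every input library. The log2 fold change was 1.32 ± 0.09 (SE), a 2.495-fold difference (adjusted p = 3.95e-08, edgeR quasi-likelihood test), which ranked 292 of 21298 genes by p. The exact permutation test on log2 CPM gave p = 0.0286, the smallest that 4 against 3 libraries allow.

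Hcn3 (ENSMUSG00000028051, minus strand of chromosome 3, 89146074 to 89160196) encodes a subunit known to respond little to cyclic AMP. It was at 4.44, 5.14 and 4.97 CPM in input and at 9.65, 13.5, 9.17 and 7.16 CPM in non-defeated TRAP. All 4 TRAP libraries lay above input, with a spread wider than that of Hcn2. Hcn3 had a log2 fold change of 1.02 ± 0.23 (adjusted p = 0.00184, edgeR quasi-likelihood test, exact permutation p = 0.0571). Exons of Hcn3 share 711 bases with Pklr, a pyruvate kinase gene on the opposite strand, and the library kit does not mark strand, so reads in that stretch cannot be told apart.

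Hcn4 (ENSMUSG00000032338, plus strand of chromosome 9, 58823412 to 58863175) encodes the slow subunit known from the sinoatrial node and the thalamus. It was the scarcest member, with 11 to 277 counts per library, at 0.739, 0.156 and 1.47 CPM in input and 1.03, 0.694, 1.72 and 1.23 CPM in non-defeated TRAP. The groups overlapped, and the log2 fold change of 0.55 ± 0.80 missed the test (adjusted p = 0.576, edgeR quasi-likelihood test), with a 95% interval from −1.15 to 2.26. At this level the interval leaves room for a fall as well as for an enrichment as large as that of Hcn2.

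Kcnq3 (ENSMUSG00000056258, minus strand of chromosome 15, 65986387 to 66286642) encodes a subunit that joins other KCNQ subunits to form M-channels. Its input libraries stood at 25.5, 27.3 and 27.3 CPM. In non-defeated TRAP it was at 13.5, 16.3, 13.95 and 13.5 CPM. No TRAP library reached the input range, and the log2 fold change was −0.90 ± 0.12 (adjusted p = 2.36e-05, edgeR quasi-likelihood test).

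Kcnq5 (ENSMUSG00000028033, minus strand of chromosome 1, 21398403 to 21961942) encodes a further M-channel subunit. It was at 25.2, 24.4 and 19.5 CPM in input and at 6.09, 6.73, 5.69 and 7.38 CPM in non-defeated TRAP. The groups were well separated, and Kcnq5 had the lowest TRAP to input ratio of the 5 members. Its log2 fold change was −1.83 ± 0.23 (adjusted p = 1.28e-05, edgeR quasi-likelihood test), a ratio of 0.282 in TRAP over input. The gene shares 237 exonic bases with Gm26580 on the opposite strand, so those reads are uncertain. Markers of several other cell types fell with Kcnq3 and Kcnq5, namely all 5 of excitatory neurons, 5 of 5 of oligodendrocytes, 5 of 5 of microglia and 4 of 5 of astrocytes. Some genes listed as markers of other cells rose with Hcn2 and Hcn3, and whether PV neurons themselves translate them was not tested. Of 6 markers of other interneurons 2 were higher in TRAP, Sst (log2 fold change 1.61) and Npy (2.79), and 4 were lower. Of 4 endothelial markers 1 was higher, Cldn5 (1.22), and 0 were lower. The part of all these cells' RNA in the member values was not tested. In bulk samples, fewer cells of a type and less RNA per cell cannot be told apart.

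**Figure D1:**
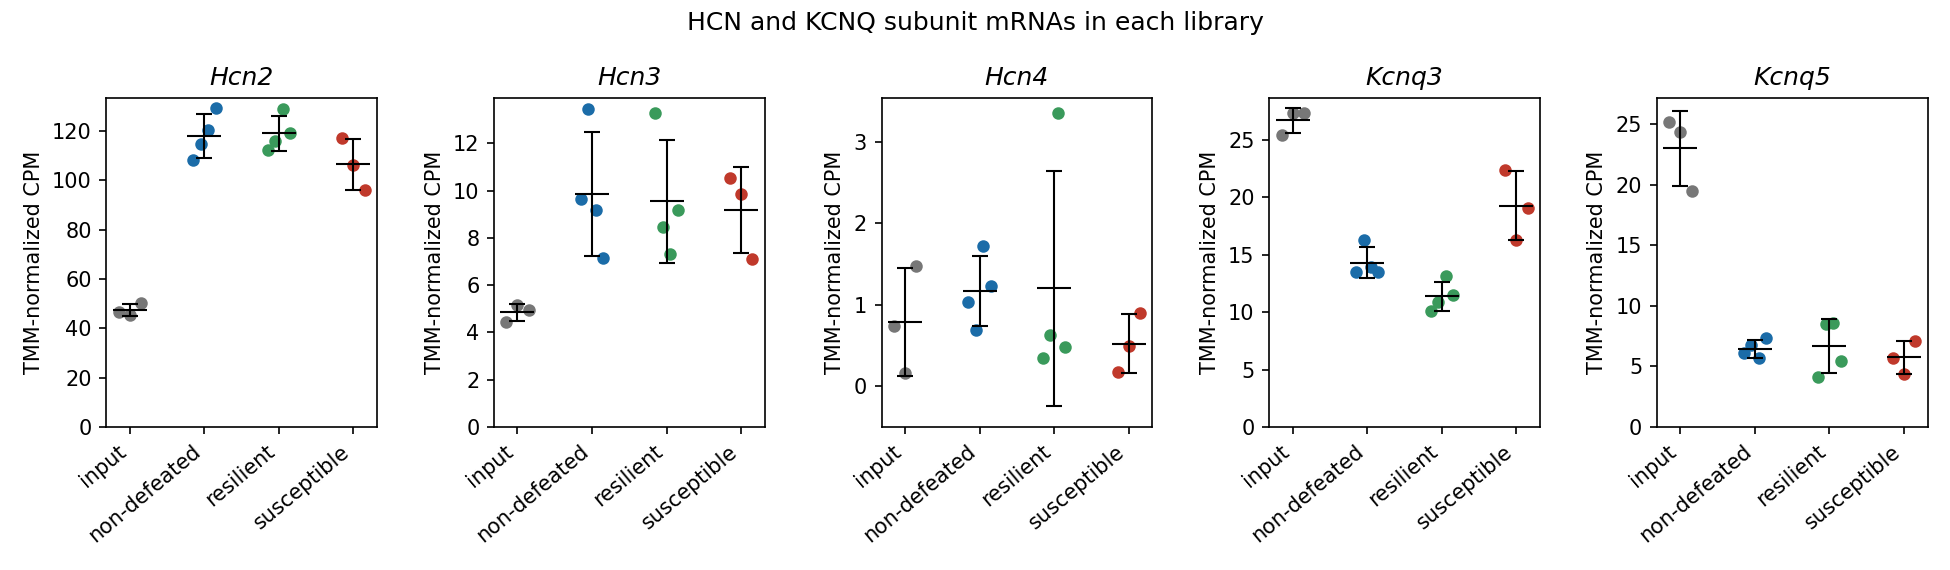
TMM-normalized CPM of the 5 subunits in each of the 14 libraries, 1 panel per gene with its own linear axis, points for libraries in the order of their sample numbers, and bars for the mean ± SD of a group. Hcn2 and Hcn3 sit higher in every TRAP group than in input, Kcnq3 and Kcnq5 sit lower, and the 3 susceptible libraries of Kcnq3 (16.3 to 22.4 CPM) lie above the 4 resilient ones (10.1 to 13.1 CPM).

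Levels of different genes were compared per kilobase of exon (RPKM). In the non-defeated PV fraction the order was Hcn2 at 36.9 ± 2.78 RPKM (SD, n = 4), Hcn3 at 2.37 ± 0.634, Kcnq3 at 0.973 ± 0.0916, Kcnq5 at 0.842 ± 0.0963 and Hcn4 at 0.191 ± 0.0700. Kcnq3 and Kcnq5 were neighbors whose libraries overlapped, while the other steps exceeded the spread between libraries. In input the order was different below Hcn2, which stood at 14.8 ± 0.776 RPKM (n = 3). There Kcnq5 came next at 2.99 ± 0.399, then Kcnq3 at 1.82 ± 0.0730, Hcn3 at 1.17 ± 0.0871 and Hcn4 at 0.129 ± 0.108. Hcn2 made up most of the summed RPKM of the 3 HCN members everywhere, 92.0% in input and 93.5% in non-defeated TRAP. The summed RPKM of the 3 HCN members over that of the 2 KCNQ members was 3.37 ± 0.453 in input and 21.8 ± 1.71 in non-defeated TRAP, and it was 25.0 ± 5.03 in resilient and 17.6 ± 3.43 in susceptible TRAP. The last 3 ranges overlapped, and none of these sums was tested.

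Whether the transcripts differ between mice that withstood CSDS and mice that did not was read from the susceptible against the resilient libraries. Kcnq3 was the member that changed, being higher in susceptible mice. Hcn2, Hcn3, Hcn4 and Kcnq5 did not pass. Thus 1 of 5 members was called, where 1.89% of all genes tested were called, 1.02% as higher in susceptible mice and 0.873% as lower. The median log2 fold change over the 5 members was −0.16 and that over all genes was 0.00.

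Kcnq3 was at 10.1, 10.9, 13.1 and 11.5 CPM in the resilient libraries and at 22.4, 16.3 and 19.1 CPM in the susceptible libraries. The lowest susceptible library exceeded the highest resilient one. The group means were 11.4 ± 1.29 CPM (SD, n = 4) and 19.3 ± 3.04 CPM (n = 3). Kcnq3 had a log2 fold change of 0.76 ± 0.12 (SE), with a 95% interval from 0.50 to 1.02, or 1.69-fold (adjusted p = 0.0225, edgeR quasi-likelihood test, exact permutation p = 0.0286). By p it ranked 18 of 21298 genes. A separation of all susceptible from all resilient libraries in this direction was found in 7.71% of genes. The susceptible level remained below that of the input libraries.

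The call of Kcnq3 was lost in 6 of 17 other fits. Its adjusted p by the edgeR quasi-likelihood test was 0.136 with only the resilient and susceptible libraries in the fit, 0.0834 with the 11 TRAP libraries and 0.0523 with the thalamic marker sum as a covariate. It was 0.0505 without resilient replicate 3, 0.0702 without resilient replicate 8 and 0.109 without susceptible replicate 2. Each replicate is named by the number in its sample name. Its log2 fold change stayed between 0.64 and 0.87 in all 7 fits that left out 1 library. Sample numbers ran from 1 to 11 across the TRAP groups. Within numbers 1 to 6 the difference was 0.87 on the log2 scale (2 against 2 libraries), and within numbers 7 to 11 it was 0.64 (1 against 2), both without a test.

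**Figure D2:**
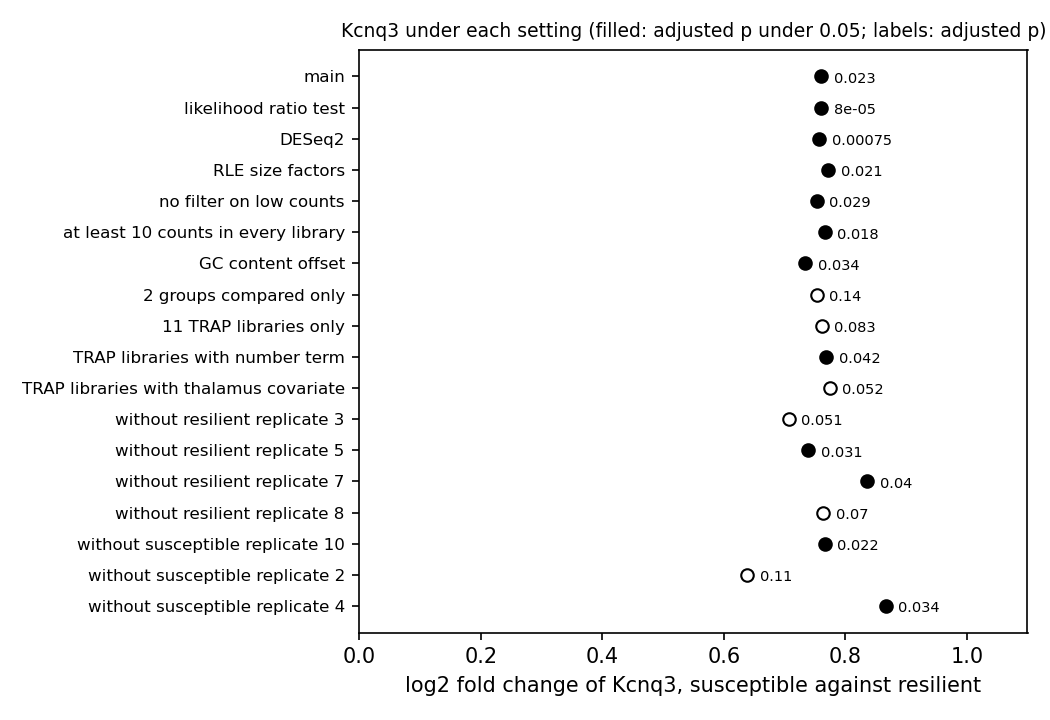
Log2 fold change of Kcnq3, susceptible against resilient, in the main fit and 17 other fits, with the adjusted p printed beside each point and filled points where it is under 0.05. All points lie between 0.64 and 0.87, and 6 of the 17 other fits are open.

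Against the non-defeated libraries Kcnq3 lay lower in resilient and higher in susceptible mice, and neither difference passed the adjusted test. The 4 non-defeated libraries served both times as the reference. For resilient mice the log2 difference was −0.33 ± 0.11 (unadjusted p = 0.0114, adjusted p = 1, edgeR quasi-likelihood test, exact permutation p = 0.0286). All resilient libraries lay below all non-defeated ones, a pattern found in 1.05% of genes. For susceptible mice the log2 difference was 0.43 ± 0.12 (unadjusted p = 0.00333, adjusted p = 0.191, edgeR quasi-likelihood test, exact permutation p = 0.0571). All susceptible libraries lay above all non-defeated ones, a pattern found in 4.21% of genes, but the nearest pair both rounded to 16.3 CPM. With both defeated groups averaged, the log2 difference of Kcnq3 from non-defeated mice was 0.05 ± 0.10 (adjusted p = 0.999, edgeR quasi-likelihood test).

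Markers of other interneurons were set beside Kcnq3, and the part of these cells' RNA in its values was not tested. The summed CPM of Sst, Vip, Cck, Npy, Lamp5 and Calb2 was 794, 479, 439 and 464 in resilient replicates 3, 5, 7 and 8, and 866, 877 and 505 in susceptible replicates 2, 4 and 10. In the non-defeated libraries it ranged from 429 to 635 CPM. The group mean was 514 CPM in non-defeated, 544 CPM in resilient and 749 CPM in susceptible libraries, highest in susceptible mice as for Kcnq3. Resilient replicate 3, with the highest sum of its group, had the lowest Kcnq3 (10.1 CPM). Susceptible replicate 4, with the highest sum, had the lowest susceptible Kcnq3 (16.3 CPM). Susceptible replicate 2, with nearly the same sum (866 CPM), had the highest Kcnq3 of all TRAP libraries (22.4 CPM). Of these 6 genes, 3 were higher in susceptible than in non-defeated mice at an unadjusted p under 0.05 (edgeR quasi-likelihood test). So were 1407 of 21298 genes, while 13.3% passed in either direction. Against resilient mice 1 of the 6 was higher in susceptible mice, beside 2309 of 21298 genes, while 20.9% passed in either direction. After adjustment 0 of the 6 passed. None of the 6 was at 0 in all libraries of a group. The 4 endothelial markers summed to 3.29 to 5.88 CPM in non-defeated, 4.18 to 18.2 CPM in resilient and 8.03 to 13.04 CPM in susceptible libraries, so that all susceptible libraries lay above all non-defeated ones. Of these genes Cldn5, a tight junction gene singled out after its values were seen, gave an unadjusted p of 0.00219 against non-defeated mice in susceptible and 0.00389 in resilient mice, with adjusted p = 0.179 and 1 (edgeR quasi-likelihood test). The part of endothelial RNA in the Kcnq3 values was not tested. Pvalb itself was at 1208 to 1332 CPM in resilient and 1241 to 1600 CPM in susceptible libraries (log2 fold change 0.17, adjusted p = 0.507, edgeR quasi-likelihood test).

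The other 4 members gave no call between the stress groups. In the resilient against non-defeated comparison 0 of 5 members were called, as were 0% of all genes. At an unadjusted p under 0.05 by the edgeR quasi-likelihood test 1 member passed, Kcnq3, beside 4.38% of all genes, and the likelihood ratio test and DESeq2 likewise called 0 members. In the susceptible against non-defeated comparison 0 of 5 were called, beside 0.0376% of all genes. There 1 member passed at an unadjusted p under 0.05, again Kcnq3, beside 13.3% of all genes, and the likelihood ratio test and DESeq2 called 0 members. For all defeated mice together 0 of 5 were called, beside 0% of all genes, 0 members passed unadjusted, beside 4.88% of all genes, and the other tools called 0.

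Hcn2 was at 112, 116, 129 and 119 CPM in resilient libraries and at 117, 106 and 96.1 CPM in susceptible libraries. The groups overlapped, with 2 of the 3 susceptible libraries below all resilient ones. Hcn2 had a log2 fold change of −0.16 ± 0.09, with a 95% interval from −0.35 to 0.02 (adjusted p = 0.306, edgeR quasi-likelihood test). Relative to the non-defeated group, Hcn2 differed by 0.01 ± 0.08 in resilient and −0.15 ± 0.09 in susceptible mice on the log2 scale. Hcn2 thus varied little between TRAP libraries, and its intervals leave out a change of 2-fold in either direction.

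Hcn3 was at 13.3, 8.44, 7.30 and 9.16 CPM in resilient and at 10.5, 9.84 and 7.10 CPM in susceptible libraries. The ranges were nearly nested in that of the non-defeated group. Its log2 fold changes were −0.05 ± 0.21 (resilient against non-defeated), −0.11 ± 0.23 (susceptible against non-defeated) and −0.06 ± 0.23 (susceptible against resilient, 95% interval −0.54 to 0.42).

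Kcnq5, the other M-channel subunit, did not pass. It was at 4.15, 8.54, 8.61 and 5.44 CPM in resilient and at 5.70, 4.40 and 7.11 CPM in susceptible libraries. The susceptible range lay inside the resilient one. The log2 fold change between them was −0.22 ± 0.24, with a 95% interval from −0.72 to 0.28 (adjusted p = 0.640, edgeR quasi-likelihood test). The intervals of Kcnq3 and Kcnq5 did not overlap, but the difference between the 2 genes was not tested. Of the summed RPKM of Kcnq3 and Kcnq5, Kcnq3 held 53.6% in non-defeated, 48.2% in resilient and 63.9% in susceptible libraries, and 37.9% in input, as group means.

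**Figure D3:**
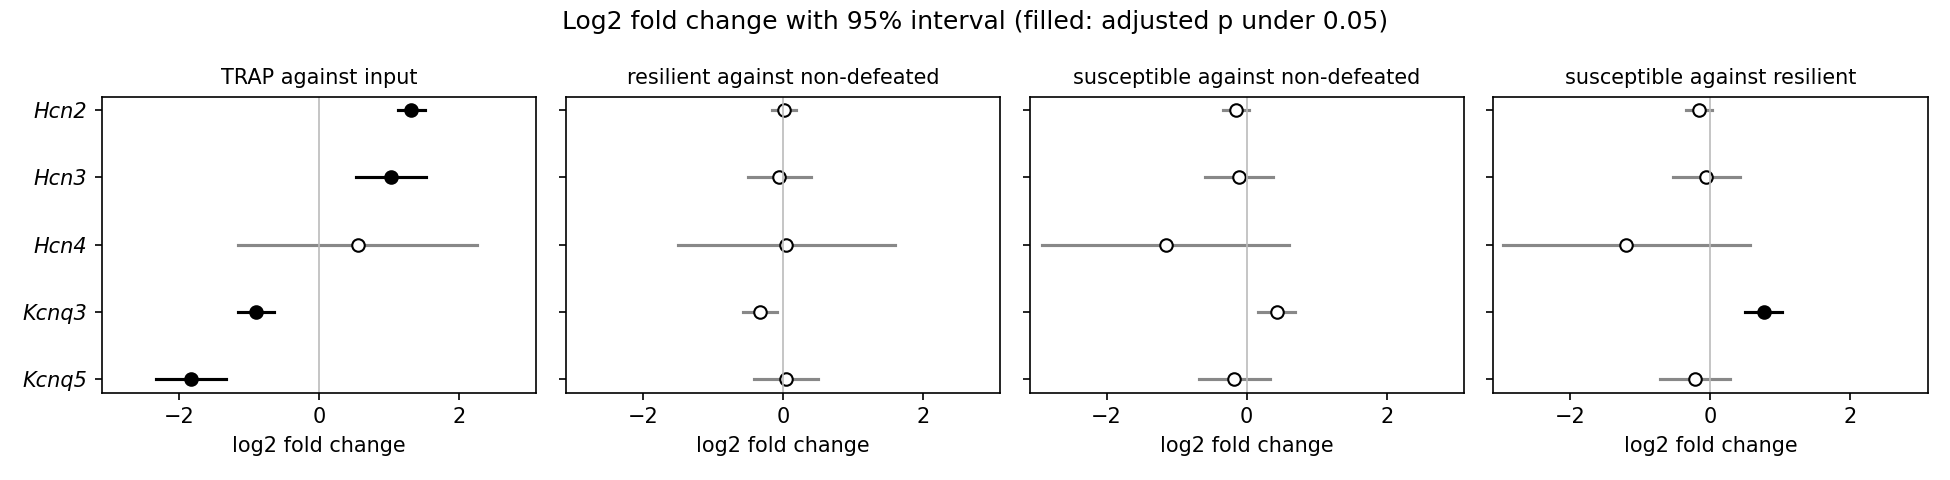
Log2 fold change with its 95% interval for the 5 subunits in 4 comparisons, filled where the adjusted p is under 0.05. In TRAP against input 4 members are filled, between −1.83 and 1.32, and in the stress comparisons Kcnq3 in susceptible against resilient (0.76) is the 1 filled point.

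Hcn4 was at 0.347, 0.634, 3.36 and 0.475 CPM in resilient and at 0.179, 0.487 and 0.901 CPM in susceptible libraries. Resilient replicate 7 stood far above all the others. The log2 fold change was −1.20 ± 0.82 for susceptible against resilient (adjusted p = 0.434), and 0.05 ± 0.72 for resilient against non-defeated mice (edgeR quasi-likelihood test). Without resilient replicate 7 the first became 0.11 and the second −1.26. Between susceptible and non-defeated mice Hcn4 differed by −1.16 ± 0.82 on the log2 scale (adjusted p = 0.553, edgeR quasi-likelihood test), with overlapping groups.

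Thalamic markers were set beside Hcn4, and the part of thalamic RNA in its values was not tested. The summed CPM of Tcf7l2, Lef1, Prkcd, Slc17a6, Gbx2, Lhx9, Tnnt1 and Rgs16, genes typical of the thalamus, which lies beside the hippocampus, was highest in the same library, 667 CPM in resilient replicate 7 against 35.8, 59.7 and 54.6 CPM in the other resilient libraries. It was 40.9, 40.8, 355 and 220 CPM in non-defeated replicates 1, 6, 9 and 11, and 45.3, 50.4 and 142 CPM in susceptible replicates 2, 4 and 10. In input it ranged from 80.3 to 370 CPM. In each TRAP group the library with the highest thalamic sum also had the most Hcn4. At low sums Hcn4 did not follow them: it was 1.03 CPM in non-defeated replicate 1 and 0.179 CPM in susceptible replicate 2. None of the 8 genes was at 0 in all libraries of a group, and 0 of 8 differed between stress groups by adjusted or unadjusted p (edgeR quasi-likelihood test). With the thalamic sum as a covariate among the TRAP libraries, the log2 fold change of Hcn4 between resilient and non-defeated mice was −0.43, against 0.05 without it.

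**Figure D4:**
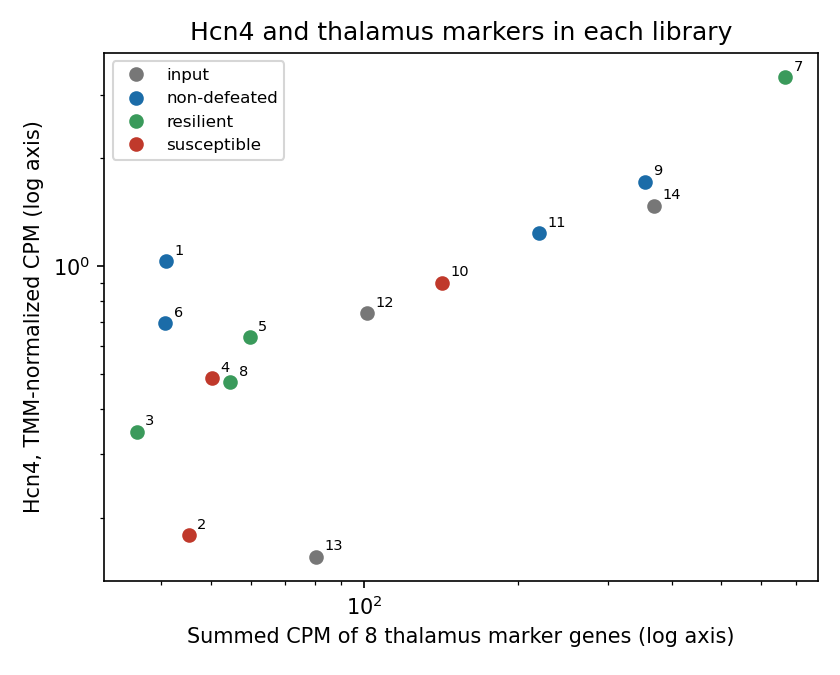
Hcn4 CPM against the summed CPM of 8 thalamic marker genes, both on log axes, 1 point per library with its sample number, colored by group. Resilient library 7 has the highest value on both axes (3.36 and 667 CPM), and the 7 libraries with the lowest thalamic sums (35.8 to 59.7 CPM) hold 0.179 to 1.03 CPM of Hcn4.

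A wider set of 25 genes covered the pore subunit gene Kcnq1, accessory subunits, binding partners and the muscarinic and PIP2 pathway that closes KCNQ channels, and 24 of them were tested (Kcne1 was not). In TRAP against input 4 were higher and 12 lower, beside 27.4% and 27.6% of all genes, with a median log2 fold change of −0.34 against −0.04 over all genes. The counts by role that follow have the same background. Kcnq1, best known from the heart, gave a log2 fold change of −2.24 ± 1.44 from 17 to 19 counts per input library and 0 to 12 per non-defeated library, and did not pass.

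Of the 4 KCNE accessory subunits tested, 3 were lower in the PV fraction. These were Kcne1l at −1.93, Kcne2 at −1.47 and Kcne3 at −2.90 on the log2 scale, the last from 26 to 37 counts per input library and 0 to 7 per non-defeated library. Of 5 HCN partners 3 were lower: Pex5l (TRIP8b), which controls the surface level of HCN channels, at −1.44 ± 0.19, Kctd3, a partner of HCN3, at −0.95 ± 0.12, and Lrmp, a partner of HCN4, at −3.18 ± 0.56. Pex5l and Kctd3 therefore lay opposite to the HCN pore subunits Hcn2 and Hcn3. Lrmp was scarce, with 48 to 70 counts per input library and 4 to 11 per non-defeated library. It shares 101 exonic bases with Casc1 on the opposite strand. Of 7 KCNQ partners 4 were higher and 1 lower. The higher ones were Calm3, a calmodulin gene (0.37), Ank3, the axon initial segment anchor ankyrin-G (0.42), Slc5a3, a myo-inositol transporter (0.21), and Usp36, a deubiquitinase (0.53). The lower one was Nedd4l, a ubiquitin ligase (−0.93). Slc5a3 lay close to the threshold (adjusted p = 0.0485, edgeR quasi-likelihood test), and it shares 159 exonic bases with Mrps6 on the same strand. Of 7 genes of muscarinic and PIP2 control 5 were lower: Chrm1, the M1 receptor (−1.28 ± 0.11), the G-protein subunits Gnaq (−0.66) and Gna11 (−0.25), and the lipid kinases Pip5k1c (−0.76) and Pi4ka (−0.39). Some called genes share exonic bases with opposite-strand genes, among them Chrm1 (329 bases with Gm22820) and Pi4ka (240 bases with Tmem191c).

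**Figure D5:**
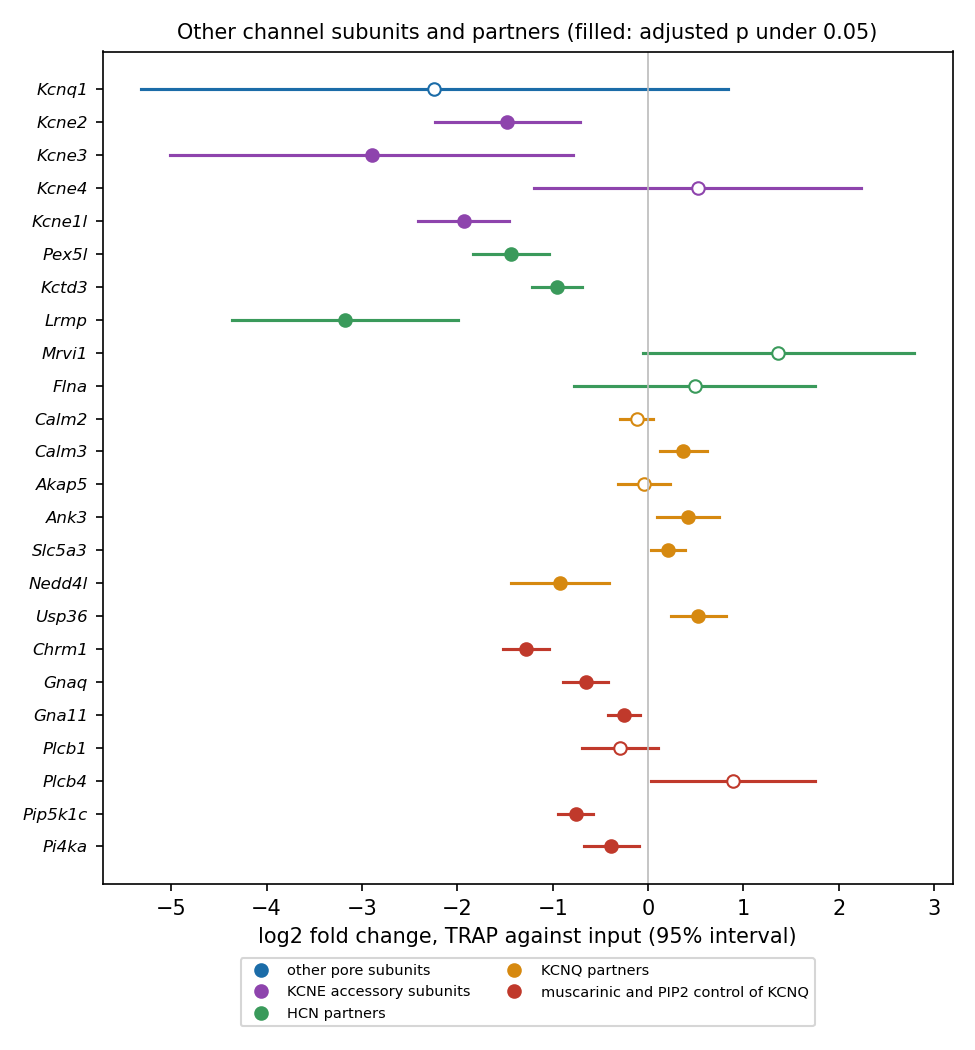
Log2 fold change with its 95% interval, TRAP against input, for the 24 tested genes of the wider set, colored by role and filled where the adjusted p is under 0.05. Usp36 (0.53) lies to the right of 0, and Pex5l (−1.44) and Chrm1 (−1.28) lie to the left.

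Between the stress groups 1 gene of the wider set passed. Pip5k1c, a kinase that makes PIP2, which KCNQ channels need to open, was at 339, 346, 344 and 348 CPM in resilient and at 265, 295 and 230 CPM in susceptible libraries. Every susceptible library was below every resilient one, as in 7.44% of all genes. The log2 fold change was −0.39 ± 0.09 (adjusted p = 0.0447, edgeR quasi-likelihood test), and no gene of the set was called in 7 of 10 other fits or on leaving out susceptible replicate 2, susceptible replicate 10 or any 1 of the 4 resilient libraries. Its non-defeated libraries stood at 285, 320, 351 and 300 CPM and overlapped both groups.

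Other genes of the set passed only an unadjusted p under 0.05 in a stress comparison. In susceptible against resilient mice these were Kcne1l (log2 fold change 0.70), Lrmp (1.25) and Calm2 (0.19), beside 20.9% of all genes, with adjusted p from 0.105 to 0.192 (edgeR quasi-likelihood test). In susceptible against non-defeated mice they were Kcne2 (0.96), Kcne1l (0.77), Lrmp (2.39), Kctd3 (−0.27) and Pip5k1c (−0.25), beside 13.3% of all genes, with adjusted p from 0.137 to 0.371. The values of Lrmp rest on few counts, 4 to 11 per non-defeated, 7 to 33 per resilient and 24 to 52 per susceptible library. In resilient against non-defeated mice 0 genes of the set passed by adjusted or unadjusted p. For all defeated mice 0 were called and 3 passed unadjusted, Kcne2, Kcne1l and Lrmp, beside 4.88% of all genes.

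The genes whose profiles lay closest to each member were ranked by the root mean square (RMS) difference of centered log2 CPM. Over all 14 libraries the closest to Hcn2 were Rab11fip5 (RMS 0.0815), Trmt2b and Sv2a, where the median for Hcn2 over all genes was 0.665. The closest to Hcn3 were BC029722 (0.145), Lsamp and Syngr3. For Kcnq5 they were Slc17a7 (0.147), the vesicular glutamate transporter of excitatory neurons, Efhd1os and Efhd1. For Kcnq3 they were Vldlr (0.170), a lipoprotein receptor, B430219N15Rik and Kcnmb4os1. Hcn4 had Crybg1 at 0.653, Gm10812 at 0.660 and St14 at 0.710, where its own median over all genes was 1.19.

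Over the 11 TRAP libraries alone the neighbors were other genes, with Slc17a7 again among those of Kcnq5. Hcn2 lay nearest to Samm50 (RMS 0.0605), Eif4enif1 and Sgip1. Hcn3 lay nearest to Dlx1as (0.117) and Dlx1, a homeobox gene of interneurons, then Fam174b. Kcnq3 lay nearest to Prdm11 (0.135), Jade2 and Nectin1, and Kcnq5 to Aff2 (0.152), Gm16165 and Slc17a7 (0.165). Hcn4 lay nearest to Cacna2d4 (0.407), Vav3 and Rorb. Rorb is known from thalamus and cortex.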

How the data were processed

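TRAP and input RNA was made into unstranded cDNA libraries. The authors trimmed reads with fastp, aligned them to mm10 with STAR (2.5.3a in the submitters' processing notes, another version in the published methods) and counted them per gene with HTSeq. The strand setting and annotation are not given in the sources used here. The deposited table holds raw counts for 39017 genes in 14 libraries, and 37693 identifiers were named from GENCODE M21 (GRCm38), which also gave exon lengths. Replicates were separate mice, and counts of replicate pairs differed beyond sampling noise (chi-square per degree of freedom 13.9 to 126). From the counts, edgeR 4.0.16 (R 4.3.3) was run with TMM scaling, the filterByExpr filter and 1 quasi-likelihood fit over all 14 libraries in 4 groups. A call was a Benjamini-Hochberg adjusted p under 0.05, over 21298 genes and 2-sided. Single genes were also compared by 2-sided exact permutation on log2 CPM (prior count 2). The smallest p this exact permutation test allows with 4 against 3 or 4 against 4 libraries is 0.0286. Named were the members, all genes of the wider set with an adjusted p under 0.05, or an unadjusted one between stress groups, Kcnq1 and the 3 nearest profiles per member. The members and lists were chosen with earlier results of these data known, and some genes of the wider set are not reported here. Alternatives were a likelihood ratio test, DESeq2 1.42.0, RLE scaling, other filters, a GC offset, fewer libraries, covariates and leaving out each library. Model fits were tested on simulated data.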

Additional observations from a re-analysis of the deposited data

Results flagged for a closer look

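Kcnq3 differed between resilient and susceptible mice, which share the non-defeated controls. The test of that difference gave a log2 fold change of 0.76 ± 0.12 (adjusted p = 0.0225, edgeR quasi-likelihood test), higher in 3 of 3 susceptible libraries than in any of the 4 resilient ones.

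A single library far from its group was found 5 times. Hcn4 was at 3.36 CPM in resilient replicate 7, a gap of 0.905 of the group's range. The thalamic marker sum was 667 CPM in the same library (0.962 of the range). Kcnq3 was at 16.3 CPM in non-defeated replicate 6 (0.834 of the range), just past Dixon's limit for 4 libraries. The sum of the other interneuron markers was 794 CPM in resilient replicate 3 (0.886 of the range), and Pvalb was at 1265 CPM in non-defeated replicate 9, the lowest of its group (0.854 of the range). Chance flags about 1 in 20 groups, and 26 groups of 4 libraries were examined, over the 5 members and 8 marker lists.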

How the results depend on the processing

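The 4 member calls in TRAP against input kept their direction and their side of the threshold in all 7 other fits and all 7 fits without 1 library. The wider set had 16 calls in that comparison, 13 to 17 in the other fits and 11 to 16 on leaving out each library. The members called in susceptible against resilient mice fell from 1 to 0 with the 2 groups compared only, with the 11 TRAP libraries only and with the thalamus covariate, and ranged from 0 to 1 on leaving out each library. The wider set fell there from 1 to 0 under RLE, no filter, the GC offset, the 2 groups only, the TRAP libraries only, the number term and the thalamus covariate, and ranged from 0 to 1 on leaving out each library. In susceptible against non-defeated mice the likelihood ratio test called 1 gene of the wider set in place of 0. Why these calls moved was not tested.

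Over all genes, the calls in susceptible against resilient mice were 403, and 1099 by the likelihood ratio test, 989 by DESeq2, 126 with no filter, 149 with the GC offset, 0 with the 2 groups only, 1 with the TRAP libraries only, 27 with the thalamus covariate and 6 to 1058 on leaving out each library. Of the 403 calls 217 were higher in susceptible mice, and of the 149 with the GC offset 54 were (36.2%). Calls in susceptible against non-defeated mice were 8, and 189 by the likelihood ratio test, 114 by DESeq2, 13 with RLE, 16 with at least 10 counts in every library, 5 with the 2 groups only, 0 with the TRAP libraries only, the number term or the thalamus covariate and 0 to 6 on leaving out each library. The likelihood ratio test called 4 genes in resilient against non-defeated mice and 30 for all defeated mice, and DESeq2 called 19 for the latter, in place of 0.

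Sign changes occurred where no call was made. In the resilient to non-defeated comparison the log2 difference of Hcn2 was −0.0093 with the GC offset, and that of Hcn4 was −0.013 with the GC offset, −0.19 with the number term and −0.43 with the thalamus covariate. On leaving out each library in that comparison, Hcn2 ranged from −0.027 to 0.054, Hcn3 from −0.25 to 0.14, Hcn4 from −1.26 to 0.35 and Kcnq5 from −0.10 to 0.22. Hcn3 ranged from −0.23 to 0.081 in susceptible against non-defeated and from −0.17 to 0.14 in susceptible against resilient mice, where Hcn4 ranged from −1.85 to 0.11. For all defeated mice Hcn3 ranged from −0.21 to 0.11, Kcnq3 from −0.012 to 0.12 and Kcnq5 from −0.16 to 0.022.

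No paired analysis was run because the groups share no sample numbers. Whether input and TRAP libraries came from the same mice is not shown by the sample names. Libraries numbered 1 to 6 and 7 to 11 were instead fitted with a number term. Hcn4 had the fewest counts of the members and the widest intervals.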
